A study of Mus musculus with 10 samples.

Results

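The 36 genes described here encode chains of integrins and laminins: 18 integrin alpha chains, 8 integrin beta chains and 10 laminin chains, out of 21631 protein-coding genes counted. They were chosen by name. The data are ATAC-seq peak lists of 10 libraries of mouse bone marrow stroma, an assay whose transposase cuts where chromatin is open, and peaks were counted per locus, meaning a gene body and the 10 kb before and after it. All libraries came from strain C57BL/6J. Scf-GFP-negative stroma (n = 2) and Scf-GFP-positive stroma (n = 2) were sorted fresh as CD45(-) Ter119(-) CD31(-) cells without, or with, the green reporter of stem cell factor, and carried no transduced gene. Control cultures (n = 3) were stroma transduced with a control vector. The rMSC cultures (n = 3) were stroma given 5 genes by transduction (Irf3, Irf7, Klf7, Ostf1 and Xbp1). The labels start cultures from Scf-GFP-positive cells grown with 20% fetal bovine serum and 10 ng/ml FGF-basic, so every cultured library shares serum, growth factor and a vector that the sorted libraries lack. The labels name neither the animals' age nor their number, and do not say that replicates came from different animals or dishes. The p-values therefore speak of spread among these libraries, part of which may be technical.

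Integrins are cell surface receptors built of an alpha and a beta chain, which hold cells to matrix and to other cells and pass signals in both directions across the membrane. The pair sets the ligand: αv chains and α5β1 read the RGD motif of fibronectin and vitronectin, α1, α2, α10 and α11 with β1 bind collagens, and α3, α6 and α7 bind laminins, while β2 and β7 chains and α4 serve mostly blood cells. Laminins are trimers of an alpha, a beta and a gamma chain that form the core sheet of basement membranes. In bone marrow, stromal cells lay down matrix around vessels and sinusoids, and blood stem cells use α4β1 to hold on to VCAM1.

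In each library the 39912 peaks of highest −log10 p were used, and a value below is the number of their summits in a locus. The depth of the libraries is unknown, and a summit missing from a list is stated only for the list. The weakest peaks used had a −log10 q of 2.65 and 2.10 in the Scf-GFP-negative libraries and 4.27 to 5.80 in the others, so Scf-GFP-negative lists reach weaker peaks. Summits at 12 stromal marker loci summed to 10 to 12 in Scf-GFP-negative libraries, 63 to 77 in Scf-GFP-positive ones, 63 to 68 in control cultures and 41 to 44 in rMSC. Summits at 10 pan-haematopoietic loci summed to 39 to 43, 23 to 27, 14 to 15 and 16 to 17 in the same order, with 1, 2, 2 and 3 loci at 0. Without Ikzf1, which held the most summits, the other 9 summed to 24 to 26, 20 to 23, 14 to 15 and 16 to 17. Of the 10 loci 3 lay higher in both Scf-GFP-negative than in both Scf-GFP-positive libraries, 2 lay lower and 5 overlapped. Among the 3 was Ptprc, which encodes the CD45 that the sort excluded, with 5 summits in both Scf-GFP-negative libraries and 0 in both Scf-GFP-positive ones. Megakaryocyte loci summed to 62 in each Scf-GFP-negative library and to 12 to 26 in all others, and erythroid loci to 60 to 69 against 8 to 22. Of these loci 8 of 12 and 7 of 10 lay higher in both Scf-GFP-negative than in both Scf-GFP-positive libraries, with none lower. Myeloid loci summed to 13 to 14 in Scf-GFP-negative and 12 to 13 in Scf-GFP-positive libraries, and lymphoid loci to 10 to 17 and 10 to 13. In both of these lists 8 of 10 loci overlapped between the sorted groups, 1 lay higher and 1 lower. The marker loci of the Scf-GFP-negative libraries thus go against a purely stromal label. The name Scf-GFP-negative stroma is used below for the sort gate only and does not state the type of the cells. In a bulk library, fewer cells with an open site and less opening per cell cannot be told apart.

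The promoter stretches of 6 genes carry the patterns that follow, and each is the 250 bases before a gene start from RefSeq (GRCm38.p6, which has mm10 coordinates), printed in the direction of the gene. Capitals mark matches, on either strand, to CCNCNCCC (a KLF-type box), to TGTGGT (RUNX) and to CCACG (XBP1). The stretches of Itgb5 (chr16:33829415-33829664, plus strand) and Itgb8 (chr12:119238277-119238526, minus strand) lay under a peak in every Scf-GFP-positive, control and rMSC library and in no Scf-GFP-negative one. Itgav (chr2:83724147-83724396, plus strand), which encodes the alpha chain that pairs with both, was covered in all 10 libraries. The start of Itga4 (chr2:79255176-79255425, plus strand) was covered in every library except the 3 control cultures. Itgb7 (chr15:102231936-102232185, minus strand) was covered in both Scf-GFP-negative libraries and rMSC 1 and 2, and Lamb1 (chr12:31265043-31265292, plus strand) in Scf-GFP-positive 2 and the 3 control cultures. The full deposited lists added rMSC 3 at Itgb7 and 1 rMSC library at Lamb1.
Itgb5: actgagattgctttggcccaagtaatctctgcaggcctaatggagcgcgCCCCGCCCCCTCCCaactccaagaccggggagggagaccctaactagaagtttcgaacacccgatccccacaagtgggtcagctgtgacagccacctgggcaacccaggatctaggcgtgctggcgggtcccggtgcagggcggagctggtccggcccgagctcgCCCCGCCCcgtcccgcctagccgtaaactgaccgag
Itgb8: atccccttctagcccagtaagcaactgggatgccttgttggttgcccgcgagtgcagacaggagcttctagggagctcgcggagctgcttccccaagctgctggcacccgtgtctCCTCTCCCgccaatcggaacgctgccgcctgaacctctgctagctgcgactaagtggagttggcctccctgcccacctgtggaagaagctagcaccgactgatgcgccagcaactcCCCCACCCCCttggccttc
Itgav: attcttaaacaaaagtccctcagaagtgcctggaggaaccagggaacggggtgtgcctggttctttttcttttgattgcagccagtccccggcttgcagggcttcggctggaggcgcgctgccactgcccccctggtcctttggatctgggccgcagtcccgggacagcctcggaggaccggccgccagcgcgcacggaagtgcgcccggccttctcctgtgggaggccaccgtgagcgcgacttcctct
Itga4: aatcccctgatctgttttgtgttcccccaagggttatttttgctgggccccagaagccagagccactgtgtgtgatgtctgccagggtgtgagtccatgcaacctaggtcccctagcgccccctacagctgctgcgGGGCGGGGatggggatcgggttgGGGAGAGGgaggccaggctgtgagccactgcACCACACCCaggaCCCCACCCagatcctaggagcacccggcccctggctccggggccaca
Itgb7: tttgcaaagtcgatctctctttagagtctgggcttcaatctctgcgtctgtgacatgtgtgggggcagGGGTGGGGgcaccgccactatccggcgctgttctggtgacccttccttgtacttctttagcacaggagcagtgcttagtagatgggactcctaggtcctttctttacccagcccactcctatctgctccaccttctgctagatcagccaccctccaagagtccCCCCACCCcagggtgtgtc
Lamb1: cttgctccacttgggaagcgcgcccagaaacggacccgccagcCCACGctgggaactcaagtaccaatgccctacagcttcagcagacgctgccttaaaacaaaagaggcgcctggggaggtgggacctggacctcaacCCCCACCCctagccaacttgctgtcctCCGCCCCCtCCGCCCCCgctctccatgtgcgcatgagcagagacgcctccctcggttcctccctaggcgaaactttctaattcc
Itgb5 held 4 KLF-type matches, Itgb8 3, Itga4 4, Lamb1 3 and Itgb7 2, counting matches that overlap one another. The single RUNX match of Itga4 overlaps one of its KLF-type matches, and Lamb1 held 1 XBP1 match. Itgav held none of the 3 motifs. Among the 21045 such stretches that RefSeq lists, 53.4% held a KLF-type match, 12.2% a RUNX match and 32.9% an XBP1 match, so the letters are common and say nothing of a factor's binding.

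The Scf-GFP-negative libraries had the fewest summits at these loci. Over the 36 loci the sum per library was 83 ± 0 (mean ± SD) in the Scf-GFP-negative, 122 ± 7.07 in the Scf-GFP-positive, 124 ± 2.65 in control and 121 ± 4.73 in rMSC libraries. The alpha chains had mean sums of 51.5, 58.5, 49.7 and 54.0 in the same order. The beta chains (16.5, 31.0, 38.0 and 34.7) and the laminins (15.0, 32.5, 36.3 and 32.7) were lowest in Scf-GFP-negative libraries. Scf-GFP-negative 1 and 2 held 12 and 21 summits at beta chains and 20 and 10 at laminins, so their equal sums hid differences. Of the 36 loci 29 had a mean of at least 2 summits and were tested with limma on log2(summits + 0.5) in a fit of 9159 loci. The 7 others were Itga2, Itgad, Itgal, Itgam, Itgax, Lamb3 and Lamc3. Loci open in 1 group alone can miss this filter, and those that pass through their high group are bound to differ. The counts of called members are therefore descriptions, as are the p-values and refits of loci at 0 in a compared group. Each call of a member was refitted with each of the 10 libraries left out and under up to 17 other settings. A call that failed in some of these is given with how many it passed. Calls of loci outside the 36 members are given from the main fit alone. A locus said not to pass did not pass in the main fit, and some of these loci passed under other settings.

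**Figure D1:**
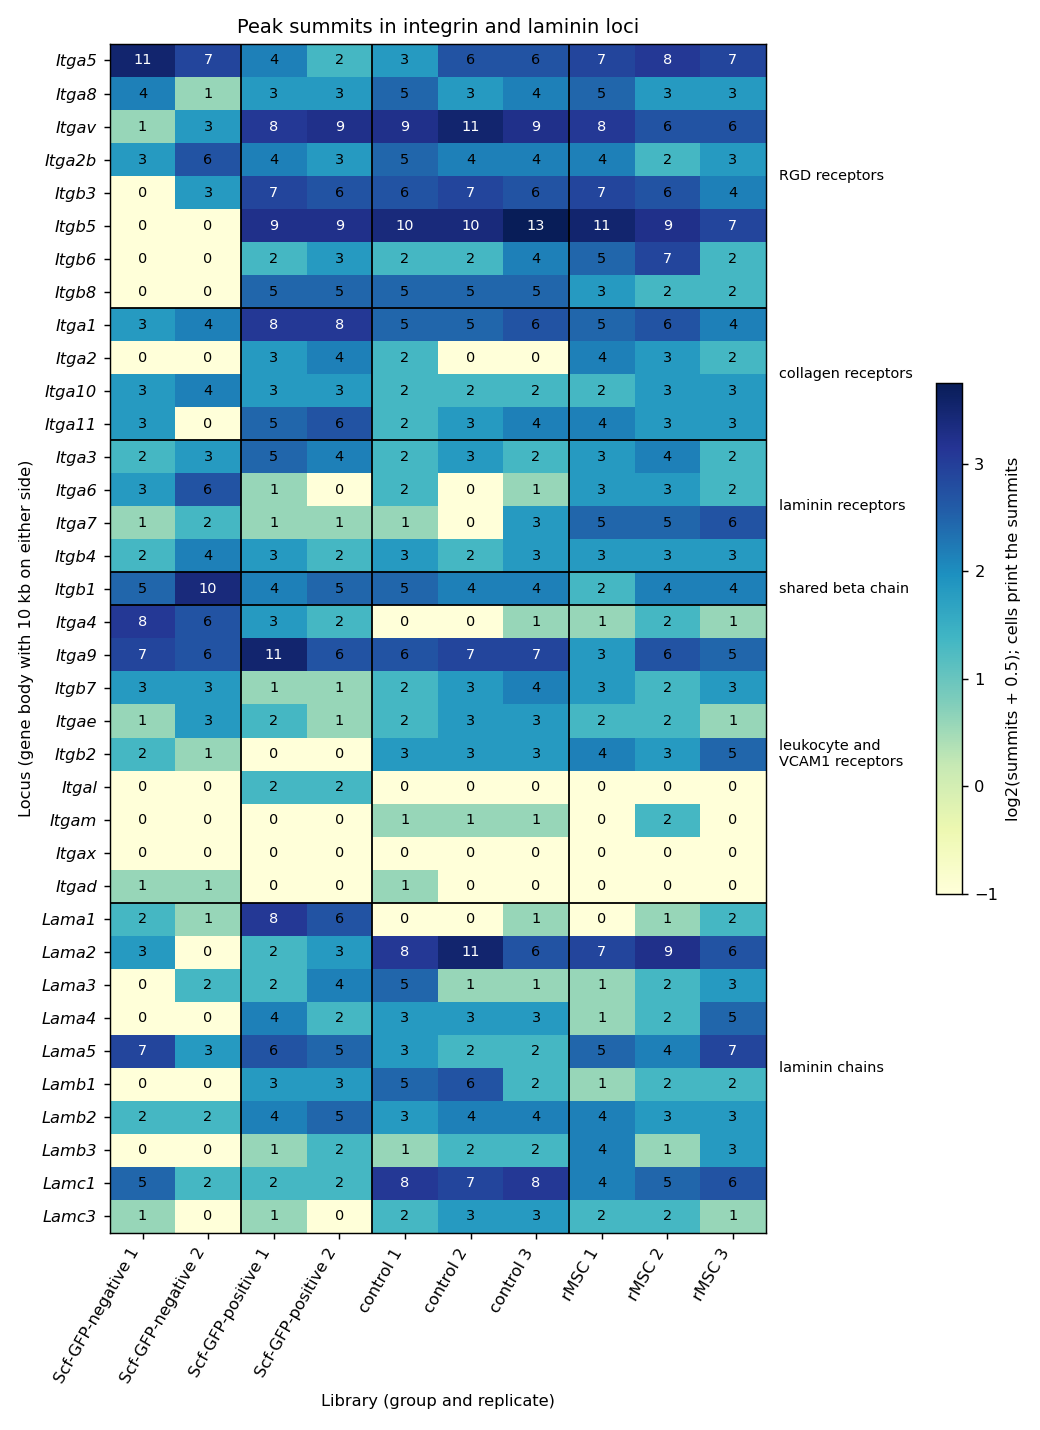
Peak summits in each of the 36 loci (rows, by role) and 10 libraries (columns, by group), printed in the cells and coloured by log2(summits + 0.5). Itgb5, Itgb6, Itgb8, Lama4 and Lamb1 are at 0 in both Scf-GFP-negative libraries, and Itgb2 is at 0 in both Scf-GFP-positive ones.

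Between Scf-GFP-positive and Scf-GFP-negative stroma 12 of the 29 tested members passed the adjusted threshold of 0.05 (30.4% of all tested loci passed), 9 with more summits (background 13.7%) and 3 with fewer (16.7%). The median log2 change was 0.43 over the 29 members and −0.22 over all tested loci. Libraries of the 2 groups did not overlap for 12 members that were higher (18.7% of all loci) and 5 that were lower (29.8%). An F-test over the 4 groups called 15 members (44.9% of all loci). The flow cell was inferred from the names of the deposited peak lists, and no label states it. With it as a factor, 11 members passed. A fit of flow cell AC99CPACXX alone holds 1 library of each sorted group, lost most of the 12 calls and made others instead. Its spread comes from 2 control and 2 rMSC libraries alone, so the lone libraries are assumed to vary like those. Flow cell AHY33MBCXX holds 1 library of each group and gives no test.

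Of the 8 RGD receptor loci, all tested, 5 rose and 1 fell from Scf-GFP-negative to Scf-GFP-positive stroma (13.7% and 16.7% of all tested loci did), and roles were not tested against each other. The 8 loci summed to 19 and 20 summits in Scf-GFP-negative libraries and to 42 and 40 in Scf-GFP-positive ones, and to 45 to 51 in control cultures and 34 to 50 in rMSC. Itgav, on chromosome 2 (83722303 to 83806917), encodes the αv chain shared by a whole set of RGD receptors. It had 1 and 3 summits in the Scf-GFP-negative, 8 and 9 in the Scf-GFP-positive, 9, 11 and 9 in the control and 8, 6 and 6 in the rMSC libraries. Both Scf-GFP-negative libraries lay below all others. The rise from Scf-GFP-negative to Scf-GFP-positive stroma was log2 1.97 ± 0.36 (SE, limma adjusted p = 0.00668, n = 2 and 2). It held in each fit that left out a library and in 16 of 17 other settings, the exception being a fit of only the 2 groups.

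Of the partner chains of αv, the genes Itgb3, Itgb5, Itgb6 and Itgb8 rose, and Itgb1, whose chain pairs with many alpha chains, did not pass (log2 −0.61 ± 0.38, limma adjusted p = 0.266). Itgb5 on chromosome 16 (33829665 to 33949338), the vitronectin receptor chain, had 0 and 0 summits in the Scf-GFP-negative, 9 and 9 in the Scf-GFP-positive, 10, 10 and 13 in the control and 11, 9 and 7 in the rMSC libraries. The Scf-GFP-negative libraries stood apart from the other 8 (limma adjusted p = 2.45e-05 against Scf-GFP-positive), and their full deposited lists held 0 summits there as well. Itgb8 on chromosome 12 (119162803 to 119238276), whose chain with αv binds latent TGF-β, had 0 and 0 summits in the Scf-GFP-negative, 5 and 5 in the Scf-GFP-positive, 5, 5 and 5 in the control and 3, 2 and 2 in the rMSC libraries. Its Scf-GFP-negative libraries were again the only ones at 0 (adjusted p = 2.45e-05), also in the full lists. These calls of Itgb5 and Itgb8 passed in each of the 10 fits that left out a library and in every other setting that tested them, 17 and 16 in number. Both loci passed the filter through the other groups, so these p-values and refits are descriptions.

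Itgb8 was also the single member called between the cultures. All rMSC libraries lay below all control libraries and below both Scf-GFP-positive ones. The fall was log2 −0.98 ± 0.14 against control (limma adjusted p = 0.0214, n = 3 and 3) and −0.98 ± 0.16 against Scf-GFP-positive stroma (adjusted p = 0.0102). The first call did not hold without any single control library or without rMSC 2 or 3 (adjusted p up to 0.0761), and it passed in 10 of 16 other settings. Another random order of tied peaks was among those that ended it. With all deposited peaks control cultures had 5, 6 and 6 summits and rMSC 4, 7 and 4. The second call held in each fit that left out a library and in 12 of 16 other settings, not with all deposited peaks.

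Itgb3 and Itgb6 encode further partners of αv. Itgb3, whose chain forms αvβ3 and the platelet receptor αIIbβ3, had 0 and 3 summits in the Scf-GFP-negative, 7 and 6 in the Scf-GFP-positive, 6, 7 and 6 in the control and 7, 6 and 4 in the rMSC libraries. The sorted groups did not overlap, but the 2 Scf-GFP-negative libraries differed from each other. The rise was log2 2.40 ± 0.76 (limma adjusted p = 0.0472), and it passed in only 1 of the 10 fits that left out a library, the one without Scf-GFP-negative 2 (adjusted p up to 0.165 in the others), and in 11 of 17 other settings. Itgb6, an epithelial TGF-β activating chain, had 0 and 0 summits in the Scf-GFP-negative, 2 and 3 in the Scf-GFP-positive, 2, 2 and 4 in the control and 5, 7 and 2 in the rMSC libraries. The Scf-GFP-negative libraries were again at 0 (limma adjusted p = 0.00985), a call lost without Scf-GFP-positive 2 (adjusted p = 0.0580) and on flow cell AC99CPACXX alone, and passed in the 15 other settings.

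Itga5, the alpha chain of the fibronectin receptor, went the other way. It had 11 and 7 summits in the Scf-GFP-negative, 4 and 2 in the Scf-GFP-positive, 3, 6 and 6 in the control and 7, 8 and 7 in the rMSC libraries. Scf-GFP-positive libraries lay below Scf-GFP-negative ones and below rMSC, and they overlapped control cultures. The fall from Scf-GFP-negative to Scf-GFP-positive stroma was log2 −1.47 ± 0.39 (limma adjusted p = 0.0276). It did not pass without Scf-GFP-negative 1 or Scf-GFP-positive 2 (adjusted p up to 0.145), and it passed in 12 of 17 other settings, not with all deposited peaks or with summits near the starts of other genes left out. Itga8, the nephronectin receptor chain, had 4 and 1 summits in the Scf-GFP-negative, 3 and 3 in the Scf-GFP-positive, 5, 3 and 4 in the control and 5, 3 and 3 in the rMSC libraries. The platelet chain Itga2b had 3 and 6 summits in the Scf-GFP-negative, 4 and 3 in the Scf-GFP-positive, 5, 4 and 4 in the control and 4, 2 and 3 in the rMSC libraries. Libraries of both loci overlapped between groups, and neither passed a comparison.

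**Figure D2:**
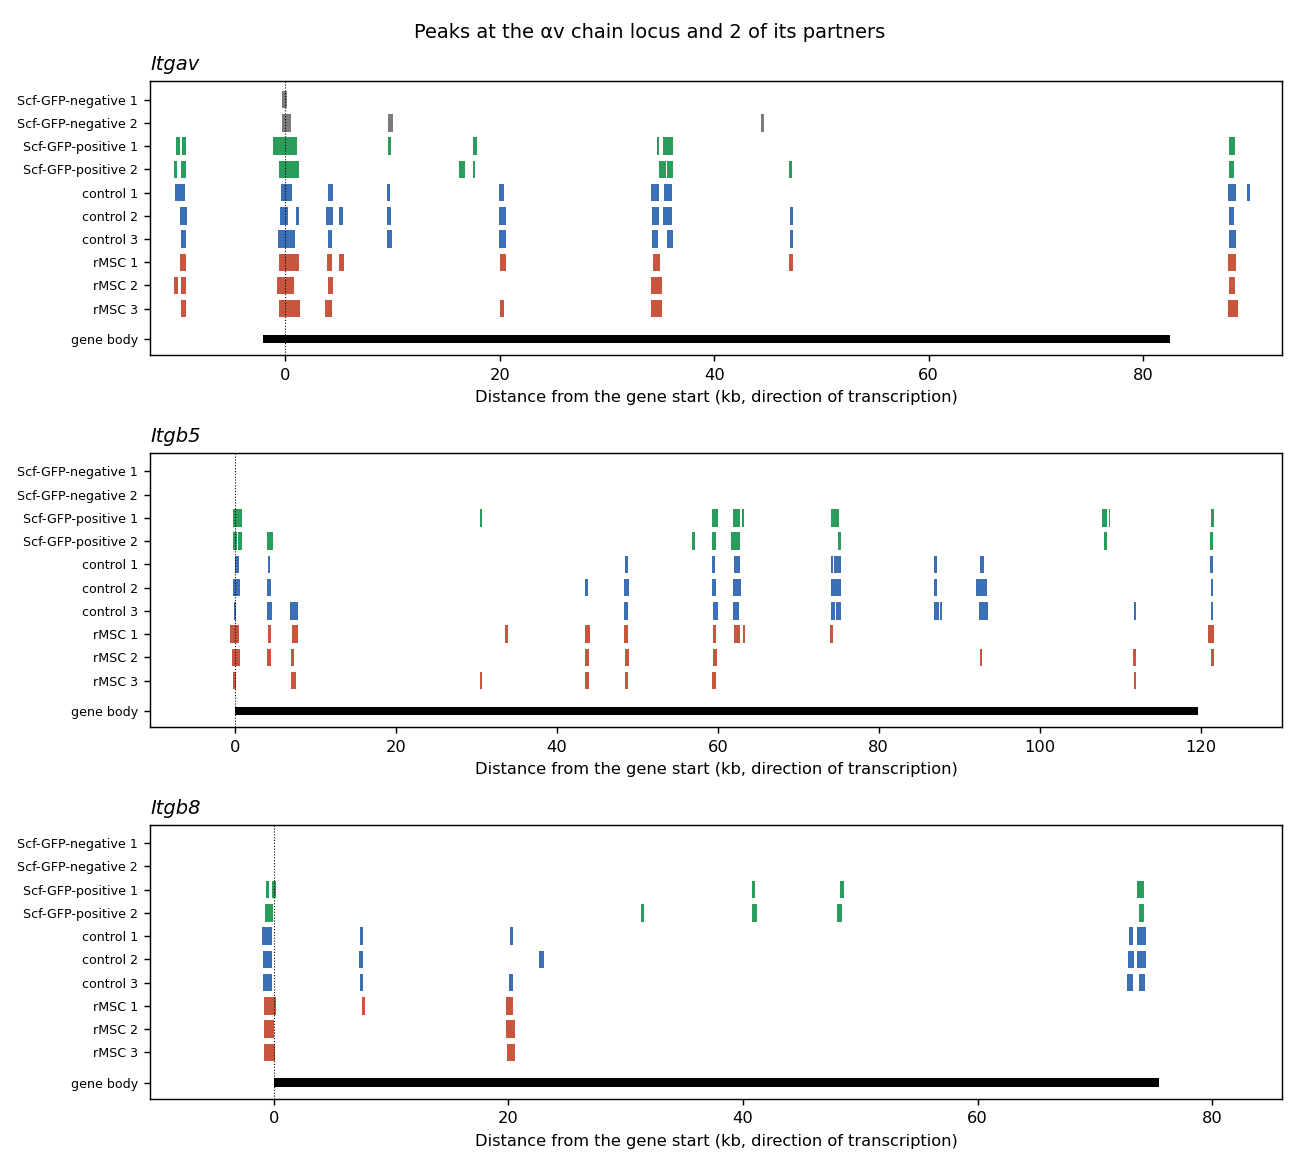
Peaks of the equal-size lists (bars, 1 row per library, coloured by group) at Itgav, Itgb5 and Itgb8, by distance from the gene start in kb, with the gene body in black. The start of Itgav is covered in all 10 libraries, while the Scf-GFP-negative rows of Itgb5 and Itgb8 are empty.

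Separate stretches of these loci opened with the groups. At Itgav the start (chr2:83723230-83725724, highest −log10 p 90.5) was open in all 10 libraries, while a stretch 9787 bp upstream (chr2:83714039-83715182) and another 35146 bp inside the gene (chr2:83758492-83760594) were open in the 8 libraries other than Scf-GFP-negative. A stretch of Itgav 4054 bp from the start (chr2:83728078-83728824) was open in the 6 cultured libraries alone. At Itgb5 the start itself (chr16:33829083-33830546) and a stretch 59621 bp inside the gene (chr16:33888889-33889683) were open in those 8. A stretch at the far end of Itgb8 (chr12:119163968-119164706, 73939 bp from the start) was open in Scf-GFP-positive and control libraries and in no rMSC library, and the start (chr12:119238038-119239285) was open in all rMSC libraries as well. Itga5 kept an open start in all 10 libraries (chr15:103364673-103367280), held a stretch open only in the 4 sorted libraries (chr15:103361912-103363326) and another open only in the 3 rMSC libraries (chr15:103352888-103353313). With no exon table in use here, a stretch is placed by gene body or flank and not by exon or intron.

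The collagen receptors were highest in Scf-GFP-positive stroma. Their 4 loci summed to 9 and 8 summits in the Scf-GFP-negative, 19 and 21 in the Scf-GFP-positive, 11, 10 and 12 in control and 15, 15 and 12 in rMSC libraries. Itga1 on chromosome 13 (114958079 to 115101964), whose chain prefers basement membrane collagen, had 3 and 4 summits in the Scf-GFP-negative, 8 and 8 in the Scf-GFP-positive, 5, 5 and 6 in the control and 5, 6 and 4 in the rMSC libraries. Scf-GFP-positive libraries lay above all 8 others. The rise over Scf-GFP-negative stroma was log2 1.10 ± 0.21 (limma adjusted p = 0.00750), and it held in each fit that left out a library and in 14 of 17 other settings, not on flow cell AC99CPACXX alone. At Itga1, 4 stretches were open in both Scf-GFP-positive libraries alone, and 1 each in control cultures alone and in rMSC alone.

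The other collagen receptors did not pass in the fit described, though each did under some other setting. Itga11, a fibroblast receptor of fibrillar collagen, had 3 and 0 summits in the Scf-GFP-negative, 5 and 6 in the Scf-GFP-positive, 2, 3 and 4 in the control and 4, 3 and 3 in the rMSC libraries. The Scf-GFP-positive libraries were again the highest. Between the sorted groups Itga11 passed with all deposited peaks scaled to the shortest list, when covered bases replaced summits and with equal chromosome totals. Itga10 stayed between 2 and 4 in every library, and passed for control against Scf-GFP-positive stroma in a fit of only the 2 groups. Itga2, which was not tested, had 0 and 0 summits in the Scf-GFP-negative, 3 and 4 in the Scf-GFP-positive, 2, 0 and 0 in the control and 4, 3 and 2 in the rMSC libraries. The start stretch of Itga2 was covered in both Scf-GFP-positive libraries, all 3 rMSC libraries and 1 control library, and in neither Scf-GFP-negative one. In the full deposited lists the control cultures held 4, 4 and 5 summits at Itga2, so their low counts belong to the stronger peaks. Between the sorted groups Itga2 passed with all deposited peaks, scaled to the shortest list or not, without the filter and with ties in list order.

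No laminin receptor chain passed a comparison in the fit described, though Itga3, Itga6 and Itga7 did under other settings. Itga7, the muscle laminin receptor, had 1 and 2 summits in the Scf-GFP-negative, 1 and 1 in the Scf-GFP-positive, 1, 0 and 3 in the control and 5, 5 and 6 in the rMSC libraries. All rMSC libraries lay above all 7 others. The test against control gave an adjusted p of 0.125 (limma, log2 2.08 ± 0.62), and it passed only when covered bases replaced summits or tied peaks were weighted. Against Scf-GFP-positive stroma the log2 change of Itga7 was 1.96 ± 0.69 (limma adjusted p = 0.105), and 5 other settings passed. Full lists held 1, 7 and 5 summits in control cultures and 7, 5 and 9 in rMSC, which overlap. Stretches at chr10:128928267-128928604 and chr10:128950170-128950794 were open in the 3 rMSC libraries alone. Itga6, the alpha chain of the main epithelial laminin receptors, had 3 and 6 summits in the Scf-GFP-negative, 1 and 0 in the Scf-GFP-positive, 2, 0 and 1 in the control and 3, 3 and 2 in the rMSC libraries. It thus had at most 2 in Scf-GFP-positive and control libraries and at least 2 in the others. The sorted groups of Itga6 did not overlap, and the change from Scf-GFP-negative to Scf-GFP-positive stroma missed the threshold (log2 −2.46 ± 0.79, limma adjusted p = 0.0508), which 7 other settings passed (lowest adjusted p = 0.00961). Against Scf-GFP-positive stroma rMSC did not overlap either (adjusted p = 0.138), with 2 settings passing. Itga3 had 2 to 5 summits in every library, and Itgb4, the partner of α6 in epithelia, had 2 to 4.

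**Figure D3:**
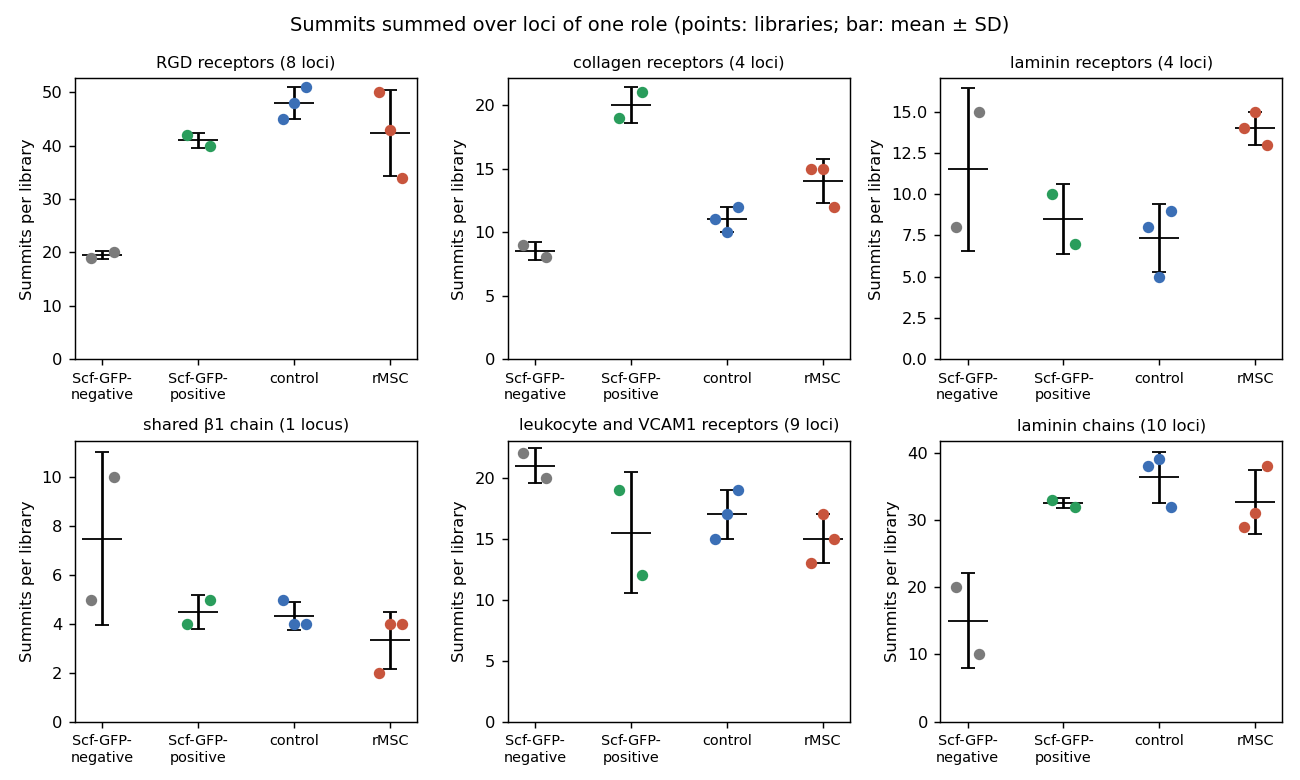
Summits per library summed over the loci of each role (points; the bar is the mean with its SD; groups of 2, 2, 3 and 3 libraries). RGD receptors and laminin chains are lowest in Scf-GFP-negative libraries, collagen receptors are highest in Scf-GFP-positive ones, and laminin receptors in rMSC overlap only Scf-GFP-negative 2.

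Itgb1, the beta chain shared by the collagen, laminin and fibronectin receptors, was open everywhere. It had 5 and 10 summits in the Scf-GFP-negative, 4 and 5 in the Scf-GFP-positive, 5, 4 and 4 in the control and 2, 4 and 4 in the rMSC libraries. It passed no comparison in the fit described. Between the sorted groups Itgb1 passed with all deposited peaks scaled to the shortest list and when covered bases replaced summits. Its start (chr8:128684957-128686876) was open in all 10 libraries, with a −log10 p of up to 102.4. Inside Itgb1 a stretch 3180 bp from the start (chr8:128688238-128689430) and another at 11602 bp (chr8:128696742-128697771) were open in the 4 sorted libraries alone, and a stretch 5586 bp upstream (chr8:128679709-128680427) in the 8 libraries other than Scf-GFP-negative. The sum at the locus thus hid stretches that differed by group.

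Among the receptors of blood cells and VCAM1, Itga4 had fewer summits in control cultures than in Scf-GFP-positive stroma. Itga4 on chromosome 2 (79255426 to 79333114) encodes the α4 chain that binds VCAM1 and fibronectin. It had 8 and 6 summits in the Scf-GFP-negative, 3 and 2 in the Scf-GFP-positive, 0, 0 and 1 in the control and 1, 2 and 1 in the rMSC libraries. Control cultures lay below both sorted groups, and rMSC overlapped both Scf-GFP-positive and control libraries. The fall from Scf-GFP-positive stroma to control cultures was log2 −2.04 ± 0.51 (limma adjusted p = 0.0437, n = 2 and 3). It passed in only 1 of the 10 fits that left out a library, the one without control 3 (adjusted p up to 0.201 in the others) and in 11 of 16 other settings, and it did not pass with the flow cell as a factor or on flow cell AC99CPACXX alone. Pan-haematopoietic sums also fell in this order, from 39 to 43 and 23 to 27 down to 14 to 17 (24 to 26 and 20 to 23 down to 14 to 17 without Ikzf1), and their part in the Itga4 counts was not tested.

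The start of Itga4 followed another order than its summits. Its 250 bases, printed above, were covered in 2 of 2 Scf-GFP-negative, 2 of 2 Scf-GFP-positive, 0 of 3 control and 3 of 3 rMSC libraries, and the full deposited lists gave the same counts. The summit of control 3 lay in the same merged stretch (chr2:79254413-79257336) but its peak did not reach those bases. A stretch 3882 bp inside Itga4 (chr2:79257923-79260693, −log10 p up to 95.7) was open in the 4 sorted libraries and in no cultured one. Between rMSC and control the count of Itga4 summits did not pass, and the promoter cover is a description with no test.

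**Figure D4:**
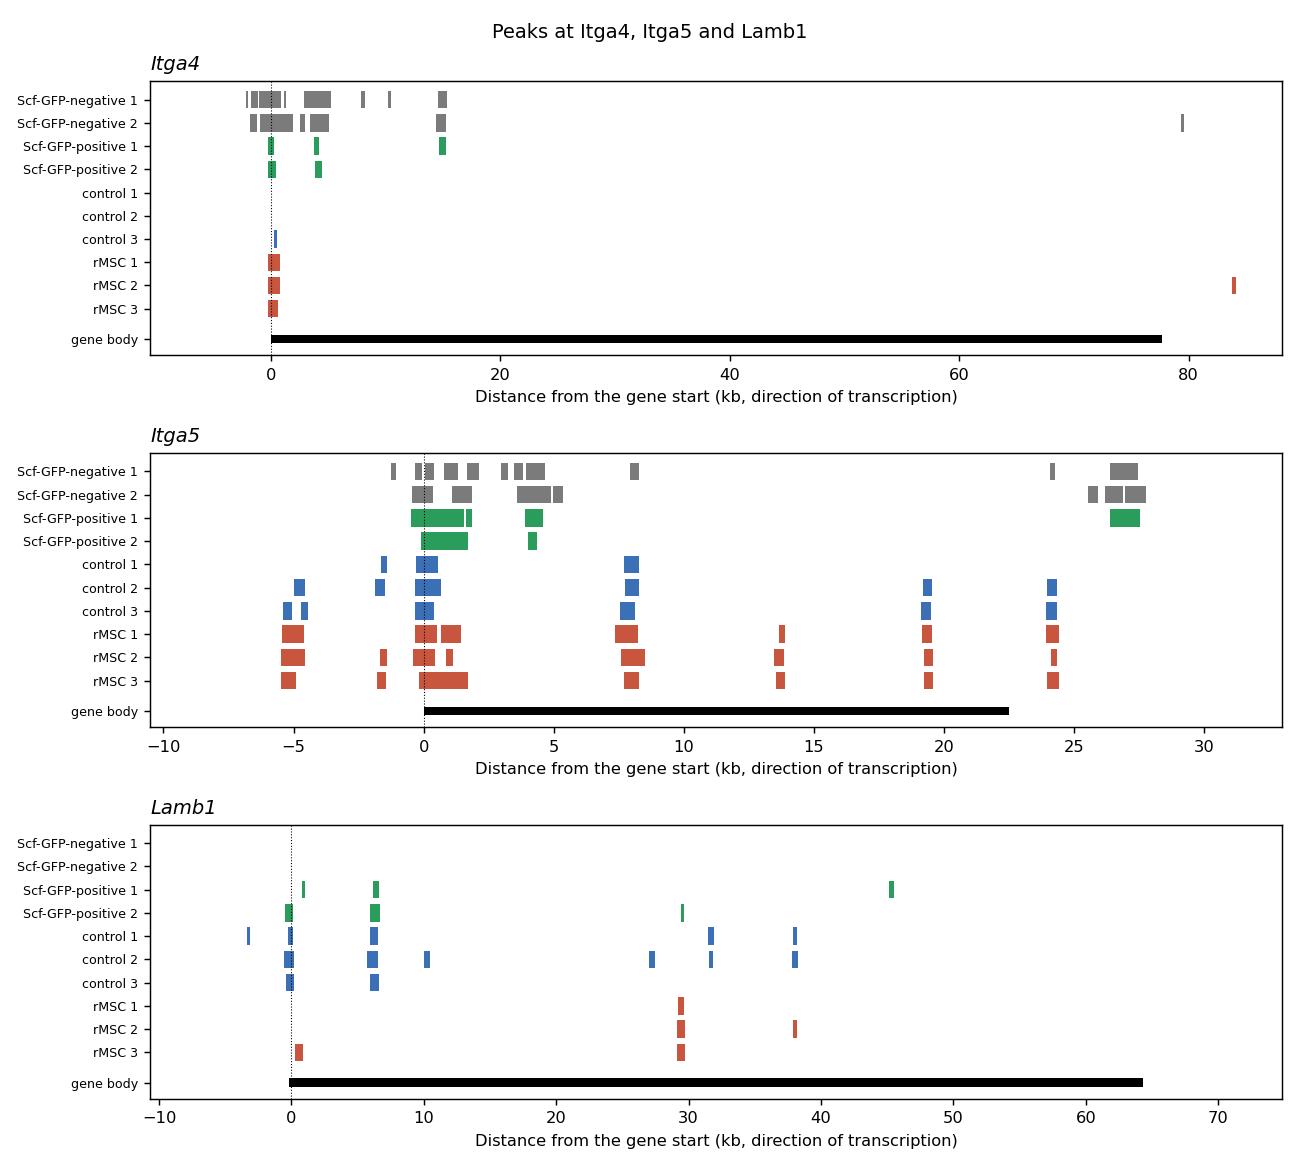
Peaks of the equal-size lists (bars, 1 row per library, coloured by group) at Itga4, Itga5 and Lamb1, by distance from the gene start in kb, with the gene body in black. The start of Itga4 is covered in the 4 sorted and 3 rMSC libraries, and Lamb1 is empty in the Scf-GFP-negative rows.

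Itgb2 and Itgb7 shared a low point in Scf-GFP-positive stroma. Itgb2, the beta chain of leukocyte integrins (chromosome 10, 77530329 to 77565708), had 2 and 1 summits in the Scf-GFP-negative, 0 and 0 in the Scf-GFP-positive, 3, 3 and 3 in the control and 4, 3 and 5 in the rMSC libraries. The Scf-GFP-positive libraries were the only ones at 0 and lay below every other group. The limma adjusted p was 0.00253 against Scf-GFP-negative stroma, 0.00131 for control and 0.000675 for rMSC against Scf-GFP-positive stroma, and each call held in every fit that left out a library. None of the 3 held on flow cell AC99CPACXX alone, where 1 Scf-GFP-positive library is left, and the first also failed with all deposited peaks and in a fit of only the 2 groups. They passed in 13, 15 and 15 of 16 other settings. Stretches at Itgb2 (chr10:77531062-77532180, chr10:77544702-77545494 and chr10:77570060-77570861) were open in all 6 cultured and in no sorted library. Ptprc was likewise at 0 in Scf-GFP-positive libraries alone, with 5 and 5 summits in the Scf-GFP-negative, 0 and 0 in the Scf-GFP-positive, 2, 1 and 2 in the control and 2, 2 and 2 in the rMSC libraries, while Ikzf1, a lymphoid regulator, had 0 in all 6 cultured libraries. The part of blood cells in the Itgb2 counts was not tested.

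Itgb7, the beta chain of the gut homing receptor α4β7, had 3 and 3 summits in the Scf-GFP-negative, 1 and 1 in the Scf-GFP-positive, 2, 3 and 4 in the control and 3, 2 and 3 in the rMSC libraries. The Scf-GFP-positive libraries again lay below all 8 others, by 1 to 3 summits. The log2 change was −1.22 ± 0.28 from Scf-GFP-negative to Scf-GFP-positive stroma (limma adjusted p = 0.0157), 1.18 ± 0.26 for control against Scf-GFP-positive stroma (adjusted p = 0.0283) and 1.06 ± 0.26 for rMSC (adjusted p = 0.0350). All 3 calls were lost without either Scf-GFP-positive library. The first was also lost without either Scf-GFP-negative library (adjusted p up to 0.0646), the second without control 2 or 3 (up to 0.119) and the third without either Scf-GFP-negative library, control 2, rMSC 1 or rMSC 3 (up to 0.134). The 3 calls passed in 12, 9 and 7 of 16 other settings. All were lost with all deposited peaks, scaled to the shortest list or not, where Scf-GFP-positive libraries held 3 and 2 summits, with flanks of 5 kb and on flow cell AC99CPACXX alone. The control and rMSC calls were also lost with summits at other genes left out, in fits of only the 2 groups and with the replicate block, and the rMSC call with equal chromosome totals and with the flow cell as a factor. A merged stretch around the start of Itgb7 (chr15:102230541-102233261) was open in every library but the 2 Scf-GFP-positive ones. The bases just before the start, printed above, were covered in both Scf-GFP-negative libraries, rMSC 1 and rMSC 2 alone. In the full deposited lists rMSC 3 covered them too. Within that stretch the equal-size list peaks of the control cultures and of rMSC 3 did not reach these bases.

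The other loci of this class held few summits or showed no call. Itga9, a tenascin and VCAM1 receptor chain, had 7 and 6 summits in the Scf-GFP-negative, 11 and 6 in the Scf-GFP-positive, 6, 7 and 7 in the control and 3, 6 and 5 in the rMSC libraries. Itgae, the chain of the E-cadherin receptor αEβ7, had 1 and 3 summits in the Scf-GFP-negative, 2 and 1 in the Scf-GFP-positive, 2, 3 and 3 in the control and 2, 2 and 1 in the rMSC libraries. Neither passed a comparison, and the libraries of their sorted groups overlapped. Of the untested leukocyte alpha chains Itgal had 2 summits in both Scf-GFP-positive libraries and 0 elsewhere, and Itgad had 1 in both Scf-GFP-negative libraries and in control 1 and 0 elsewhere. Itgam had 1 in each control library, 2 in rMSC 2 and 0 elsewhere, and Itgax had 0 in every library, also in the full lists.

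Of the 8 tested laminin chains 3 rose from Scf-GFP-negative to Scf-GFP-positive stroma (13.7% of all tested loci did) and 0 fell (16.7%), and the 3 were both tested beta chains and 1 alpha chain. Lamb1 on chromosome 12 (31265146 to 31329644), a beta chain of the common laminins, had 0 and 0 summits in the Scf-GFP-negative, 3 and 3 in the Scf-GFP-positive, 5, 6 and 2 in the control and 1, 2 and 2 in the rMSC libraries. Its Scf-GFP-negative libraries were the only ones at 0 (limma adjusted p = 0.00409), also in the full lists, and the call held in each fit that left out a library and in 15 of 16 other settings, not on flow cell AC99CPACXX alone. Lamb2, the beta chain of vascular and synaptic laminins, had 2 and 2 summits in the Scf-GFP-negative, 4 and 5 in the Scf-GFP-positive, 3, 4 and 4 in the control and 4, 3 and 3 in the rMSC libraries. Scf-GFP-negative libraries lay below all others. The rise of Lamb2 was log2 0.99 ± 0.20 (limma adjusted p = 0.00918), and it too held in each of those fits, and in 12 of 15 other settings. Lama4, the alpha chain of vessel laminin, had 0 and 0 summits in the Scf-GFP-negative, 4 and 2 in the Scf-GFP-positive, 3, 3 and 3 in the control and 1, 2 and 5 in the rMSC libraries. It was at 0 in both Scf-GFP-negative libraries only (limma adjusted p = 0.00935), a call lost without Scf-GFP-positive 1 (adjusted p = 0.0573) and with all deposited peaks, where Scf-GFP-negative 1 held 2. It passed in 12 of 16 other settings, not in a fit of only the 2 groups, on flow cell AC99CPACXX alone or with ties in list order.

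Control cultures differed from Scf-GFP-positive stroma at 5 members (11.7% of all tested loci passed), 3 with more summits (background 5.68%) and 2 with fewer (5.99%). Among the 5 were the laminins Lamc1 and Lama1. Lamc1, the gamma chain of most laminin trimers (chromosome 1, 153218922 to 153332786), had 5 and 2 summits in the Scf-GFP-negative, 2 and 2 in the Scf-GFP-positive, 8, 7 and 8 in the control and 4, 5 and 6 in the rMSC libraries. Control cultures lay above all 7 other libraries, and rMSC lay between control and Scf-GFP-positive. The rise was log2 1.71 ± 0.31 (limma adjusted p = 0.0180), lost without either Scf-GFP-positive library or control 1 (adjusted p up to 0.0840), and it passed in 14 of 17 other settings, not with all deposited peaks. A stretch of Lamc1 at chr1:153308197-153308937 was open in the 3 control libraries alone, and its start (chr1:153331990-153334229) in all 10.

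Lama1, an alpha chain of embryonic basement membranes (chromosome 17, 67697127 to 67822645), had 2 and 1 summits in the Scf-GFP-negative, 8 and 6 in the Scf-GFP-positive, 0, 0 and 1 in the control and 0, 1 and 2 in the rMSC libraries. Scf-GFP-positive libraries lay above all 8 others. The fall to control cultures was log2 −3.37 ± 0.75 (limma adjusted p = 0.0308), and it was lost without either Scf-GFP-positive library, control 1, control 2 or rMSC 2 (adjusted p up to 0.145) and held in 14 of 16 other settings. The difference of Lama1 between rMSC and Scf-GFP-positive stroma missed the threshold (adjusted p = 0.0596), and 7 other settings passed it. Stretches at chr17:67759082-67759696 and chr17:67777941-67778374 were open in both Scf-GFP-positive libraries alone. A stretch of 383 bp in Lama1 (chr17:67741231-67741613) reached a −log10 p of 177.1 in Scf-GFP-negative 1, the highest value of any stretch in the 36 loci.

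Lama2, the muscle and nerve laminin chain, had 3 and 0 summits in the Scf-GFP-negative, 2 and 3 in the Scf-GFP-positive, 8, 11 and 6 in the control and 7, 9 and 6 in the rMSC libraries. All 6 cultured libraries lay above all 4 sorted ones. The F-test over the 4 groups passed (limma adjusted p = 0.0438), while none of the 4 pairwise comparisons did. Lama2 is a long locus, from 26981285 to 27617191 on chromosome 10, and stretches 442465 and 367002 bp from its start were open in the 6 cultured libraries alone. Lama5, the alpha chain of adult vessel and marrow laminins, had 7 and 3 summits in the Scf-GFP-negative, 6 and 5 in the Scf-GFP-positive, 3, 2 and 2 in the control and 5, 4 and 7 in the rMSC libraries. Control cultures were at or below every other library, and no comparison passed in the fit described. Control against Scf-GFP-positive stroma passed in 4 other settings (lowest limma adjusted p = 0.00697), among them ties in list order and in another random order. By covered bases rMSC against control passed too (limma adjusted p = 0.00715). Lama3 ranged from 0 to 5 summits with groups that overlapped, and the untested Lamb3 and Lamc3 had at most 4 and 3 summits in a library.

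Between rMSC and control cultures 1 of 29 members passed, Itgb8 with fewer summits (2.58% of all tested loci passed, 1.43% with more summits and 1.15% with fewer). Libraries did not overlap for 3 members that were higher in rMSC (9.15% of all loci) and 3 that were lower (6.81%). Between rMSC and Scf-GFP-positive stroma 3 members passed (14.2% of all loci), Itgb2 and Itgb7 with more summits (7.69%) and Itgb8 with fewer (6.54%). Median log2 changes over the 29 members were 0.04 for control against Scf-GFP-positive, −0.12 for rMSC against control and −0.21 for rMSC against Scf-GFP-positive, where all tested loci had −0.0049, 0 and 0. Both cultured groups, and Scf-GFP-negative stroma, were set against the same 2 Scf-GFP-positive libraries. With the flow cell as a factor 4, 1 and 2 members passed in these 3 comparisons. On flow cell AC99CPACXX alone, with its 1 Scf-GFP-positive library, most main calls against Scf-GFP-positive stroma were lost and other members were called instead. The Itgb8 call between the cultures was kept there.

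**Figure D5:**
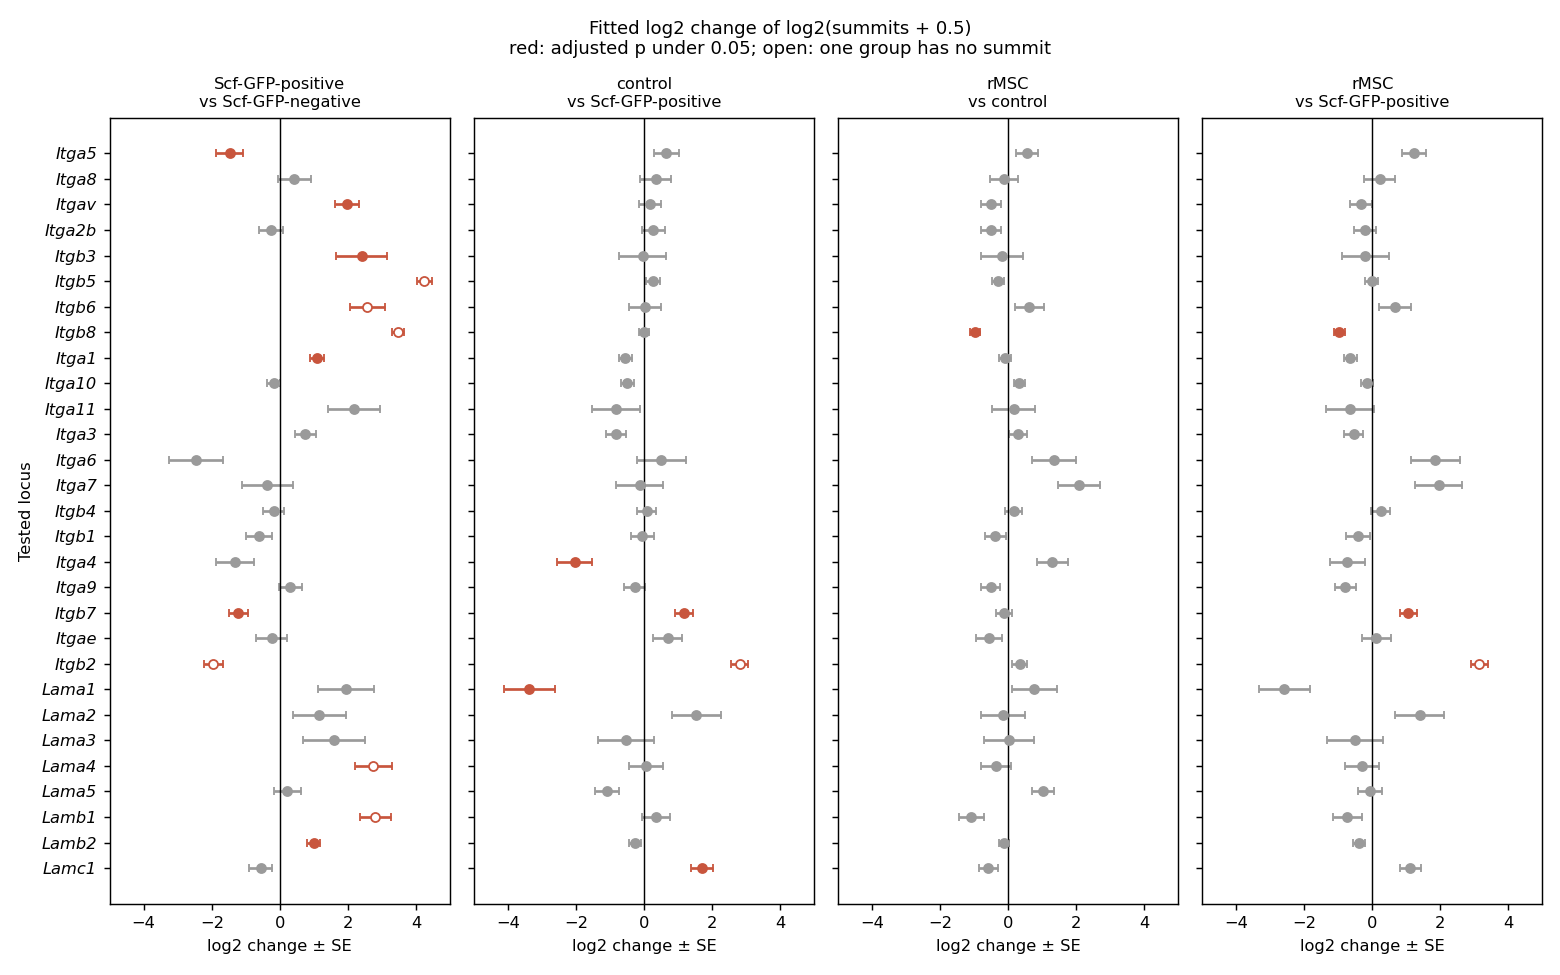
Fitted log2 change of log2(summits + 0.5) with its SE for the 29 tested members (rows) in the 4 comparisons (panels); red marks an adjusted p under 0.05, and open circles a comparison with a group that has no summit, whose size depends on the added 0.5. Red marks number 12, 5, 1 and 3 from left to right.

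Merging the peaks of the 10 lists gave 345 stretches in the 36 loci. Of these 16 were open in all 10 libraries and 260 were open in some but not all libraries of a group. Of the rest 18 were open only in Scf-GFP-positive stroma, 12 in all groups but Scf-GFP-negative, 11 in both cultures alone, 8 each in control alone and in rMSC alone, 4 each in Scf-GFP-negative alone and in both sorted groups, 3 in Scf-GFP-positive and control libraries, and 1, at Itgb7, in all groups but Scf-GFP-positive. A group of 2 libraries meets such a rule more easily than a group of 3. The classes also changed when more of a stretch had to be covered, as given at the end. Where the gene start is listed, 4 of 11 stretches open in all libraries lay within 1 kb of it, against 0 of 13 open only in Scf-GFP-positive stroma, 0 of 4 only in Scf-GFP-negative stroma, 0 of 6 only in control and 0 of 5 only in rMSC. Stretches of a single group at these loci thus lay more than 1 kb from a listed start.

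Of 26 listed member promoters, from 23 of the 36 genes, 3 (11.5%) were covered in all 10 libraries, namely Itgav, Itga5 and Itgb1, where 36.5% of all 21045 promoters were. Another 7 (26.9%) were covered in none, against 39.9%. Median GC content was 64.4% in the 3 covered everywhere, 59.8% in the 16 covered in part and 50.8% in the 7 covered in none, and 62.0%, 58.8% and 47.6% over all promoters of those classes. A KLF-type match was in 18 of 26 member promoters (69.2%), an XBP1 match in 4 (15.4%), a RUNX match in 2 (7.7%), an IRF match in 2 (7.7%, 3.0% of all), an AP-1 match (TGANTCA) in 1 (3.8%, 6.2% of all) and an EBF match in 0 (0.8% of all).

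The partners of these chains were read from lists of pathway genes, and their calls are from the main fit alone, with no refits given. Of 28 genes of the adhesion complex, which couples integrins to actin, 25 were tested, and 11 rose and 2 fell from Scf-GFP-negative to Scf-GFP-positive stroma, where 13.7% of all tested loci rose and 16.7% fell. Fermt2, the kindlin of stromal cells that activates integrins, had 0 and 0 summits in the Scf-GFP-negative, 5 and 6 in the Scf-GFP-positive, 8, 6 and 7 in the control and 3, 3 and 2 in the rMSC libraries. It fell in rMSC by log2 −1.25 ± 0.17 against control (limma adjusted p = 0.0169) and by −0.93 ± 0.19 against Scf-GFP-positive stroma (adjusted p = 0.0212), as Itgb8 did. Fermt3, the kindlin of blood cells, fell from 5 and 6 to 3 and 3 summits between the sorted groups (log2 −0.77 ± 0.18, adjusted p = 0.0185). Of 13 tested basement membrane partners of laminins 7 rose and 3 fell there, against the same 13.7% and 16.7%. Hspg2, which encodes perlecan, rose from 2 and 2 to 8 and 6 summits (log2 1.57 ± 0.24, adjusted p = 0.00341), and Ntn4, a laminin-like netrin, fell from 14 and 16 to 2 and 2 (log2 −2.63 ± 0.51, adjusted p = 0.00854). Of 13 tested matrix ligands 9 rose and 0 fell, and of 2 tested cell surface ligands 1 rose, against the same background. Control cultures differed from Scf-GFP-positive stroma at 1 adhesion complex locus (Tns2, more), 2 matrix ligands (Thbs2 and Tnr, more) and 1 surface ligand (Icam1, fewer), and at no basement membrane partner, where 5.68% of all tested loci had more summits and 5.99% fewer. Median log2 changes between the sorted groups were 0.76 for the adhesion complex, 2.57 for matrix ligands and 1.57 for basement membrane partners, beside the −0.22 of all tested loci. Loci of these lists near 0 in Scf-GFP-negative libraries passed the filter through the other groups and were bound to rise. The lists were also chosen with earlier results of these data known, so their counts and medians are descriptions.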

How the data were processed

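The deposited files are peak lists, 1 per library, called with MACS2 after BWA alignment to mm10, per the submitters' processing notes, with versions not given in the sources used here. Each peak carries the authors' deposited score, fold enrichment (a ratio), and −log10 of its p-value and q-value, used to rank and filter peaks within a list. The highest −log10 p of some stretches and the lowest −log10 q of the lists are also printed. They are descriptions, since the depth of the libraries is unknown. Chromosome Y was left out. Deposited lists held 39936 to 78489 peaks, so the 39912 of highest −log10 p were taken from each, with ties at the end of a list (725 to 9121 peaks) in random order, since list order favours some chromosomes. Summits were counted per RefSeq locus (GRCm38.p6) with 10 kb on either side, filtered at a mean of 2 per library and fitted as log2(summits + 0.5) with limma 3.58.1 and a trend (R 4.3.3), all 4 groups in 1 fit with 6 residual degrees of freedom. P-values are two-sided, Benjamini-Hochberg adjusted over 9159 loci, with a threshold of 0.05, and the log2 scale understates changes at low counts. The code was tested on simulated counts. A locus can hold summits of neighbouring genes. All 36 members are named, with log2 changes, SE and adjusted p given where a comparison passed. Itga6, Itga7 and Itgb1 (log2 and p) and the F-test of Lama2 are exceptions, chosen after their values were seen. Stretches are overlapping peaks merged over the lists, present by an overlap of at least 1 bp. The members and lists were chosen with earlier results of these data known. Alternatives varied list length, filter, pseudocount, flank, flow cell, replicate block and left-out libraries, and 3 ways of treating ties were added after seeing the data.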

Additional observations from a re-analysis of the deposited data

How the results depend on the processing

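Over 27 alternatives (10 that left out a library, 17 others, 3 of these chosen after seeing the data), no call of a member in a comparison changed direction, and the causes of the moves below were not tested. Called members, then loci, with a library left out ranged from 8 to 12 and 1842 to 2605 (Scf-GFP-positive against Scf-GFP-negative), 1 to 6 and 471 to 1300 (control against Scf-GFP-positive), 0 to 1 and 61 to 513 (rMSC against control), 2 to 4 and 556 to 1523 (rMSC against Scf-GFP-positive) and 9 to 14 and 3394 to 3637 (F-test). In the same order of comparisons, lists of 20000 peaks called 3, 1, 0, 0 and 5 members and 1057, 465, 597 (rMSC against Scf-GFP-positive) and 1659 (F-test) loci. Fits of only the 2 groups called 5 and 3 members in the first and second comparisons, 997 loci in the first and 510 for rMSC against control. All deposited peaks gave 3, 0 and 1 members in the last 3 pairwise comparisons, with 453 and 35 loci in the first 2 of these. No filter gave 1749, 745 and 2223 loci in those 3. Covered bases gave 1749, 923 and 1960 loci and, for rMSC, 3 and 7 members. Equal chromosome totals gave 134 loci and 0 members for rMSC against control, where the flow cell as a factor gave 118 loci and flow cell AC99CPACXX alone 779 loci and 3 members. That flow cell alone gave 2232 loci and 8 members by the F-test. For rMSC against control, tied peaks in another random order gave 0 members and weighted ties 2. Against Scf-GFP-positive stroma rMSC had 5 members with ties in list order, 6 in another random order, 8 weighted, and 5 with summits at other genes left out.

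The labels do not say whether replicate numbers pair libraries, and the check made here cannot decide it. Deviations of same-numbered libraries correlated at −0.0276 to 0.0165 over 13 pairs and those of others at −0.0219 to 0.0265 over 24. In a group of 2 libraries the deviations mirror each other, so these values are not independent. Replicate 1 of every group was also the library of flow cell AHY33MBCXX. With the replicate number as a block, 2360, 428, 45 and 599 loci and 10, 2 and 0 members (first 3 comparisons) passed. The share of called loci with more summits was 45.2, 48.6, 55.5 and 54.0% in the 4 pairwise comparisons and 65.4, 28.2, 68.0 and 40.2% by covered bases, and 78.8, 76.4, 71.4 and 81.7% with all deposited peaks, whose lists differ in length. If a stretch had to be covered to 50%, 2 instead of 16 were open in all libraries and 6 instead of 12 in all groups but Scf-GFP-negative. No stretch was then open in both sorted groups alone or in all groups but Scf-GFP-positive. Stretches of Scf-GFP-negative, Scf-GFP-positive, control and rMSC libraries alone numbered 7, 19, 14 and 13. With all deposited peaks no stretch was open in all groups but Scf-GFP-positive either. Groups of 2 or 3 libraries and the unknown depth limit the precision of every count.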
